A study of Sus scrofa with 4 samples.

Results

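Wnt and R-spondin signalling was followed through 42 genes in granulosa cells of the pig ovary, chosen by gene symbol as Wnt ligands, R-spondins, their receptors, secreted antagonists, β-catenin and its partners, and TCF factors. All 42 were found among the 29884 rows of the deposited count table, and 30 of them passed the filter on low counts. RNA sequencing had been run on granulosa cells from porcine antral follicles, where these somatic cells line the cavity around the oocyte. Flow cytometry had first measured the G0/G1 share, that is the fraction of cells that have not yet begun DNA synthesis. The remaining cells formed a group with a high G0/G1 share (high, 2 libraries) and a group with a low share (low, 2 libraries). Tissue, cell type and handling were labelled alike in both groups, with no treatment or genotype. The sources used here do not state age, breed or the number of animals or follicles behind a library, so p-values measure only the spread between these libraries, which may be technical.

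Wnt proteins are secreted, lipid-modified ligands that bind frizzled receptors together with the co-receptors LRP5 and LRP6. Binding halts the destruction complex of AXIN and APC, so that β-catenin builds up and acts with TCF and LEF factors on target genes. The membrane ligases ZNRF3 and RNF43 remove frizzled receptors from the cell surface, and R-spondins bound to LGR4, LGR5 or LGR6 block these ligases. In the fetal ovary RSPO1 and WNT4 act in female development, and in granulosa cells of the adult β-catenin is known to work with follicle-stimulating hormone in hormone synthesis.

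Library totals ran from 27442850 to 32674921 counts. Levels are in CPM, counts per 1000000 of the scaled library total, and gene lengths were not at hand, so levels of different genes are not ranked against each other. Of 16 granulosa markers 15 had a count, with FSHR, FOXL2, INHA and AMH in every library. The exception was the aromatase gene CYP19A1, with 0 counts, while its paralog CYP19A3 stood at 1142 to 3986 CPM. The granulosa markers differed between the groups in both directions. Of the 14 tested, both high libraries were above both low ones in 5 and below them in 8. These were 35.7% and 57.1%, beside 26.8% and 29.8% of all genes tested. FSHR averaged 24.3 CPM in high and 83.7 in low, and AMHR2 averaged 73.3 and 28.5. The part of granulosa cell state in the pathway values was not tested. Low replicate 2 stood apart in stromal markers. Its 11 stromal and smooth muscle markers summed to 1626 CPM, against 56.2 to 161 in the other 3 libraries, and 9 of the 11 were highest in it, while PDGFRA and MYH11 were highest in high replicate 2. Of 7 theca markers 3 were highest in low replicate 2, among them CYP17A1, the androgen-making enzyme of theca cells, at 51.5 CPM against 0.125 to 1.02. The theca sum was 1139 and 416 CPM in high and 337 and 513 CPM in low. LHCGR added most to it in both high libraries and in low replicate 1, and INSL3 added most in low replicate 2. A list of 25 genes of S phase and mitosis summed to 1707 and 497 CPM in the high libraries and to 4542 and 4045 in the low ones, so high replicate 1 lay between high replicate 2 and the low libraries.

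In the libraries with a high G0/G1 share, LGR4, LRP6, FZD6, the antagonist receptor KREMEN1, DKK3 and the transcription factor TCF7L2 had higher levels. FZD1 was below its level in the libraries with a low share. CTNNB1, the gene of β-catenin, differed by 0.01 ± 0.21 (SE) on the log2 scale. R-spondin genes had 0 to 2 counts per library. By edgeR's quasi-likelihood test with Benjamini-Hochberg adjustment over 14352 genes, 0 members passed an adjusted p under 0.05, as did 0 genes in all. The background share of called genes was 0% in each direction, and the smallest adjusted p over all genes was 0.125. At an unadjusted p under 0.05, 7 members had higher and 1 had lower levels in the high group, 23.3% and 3.33% of the 30 tested, where 9.92% of all tested genes were higher and 10.8% lower. Without low replicate 2 the counts were 5 and 1, where 5.54% and 5.36% of all genes had such a p. Without high replicate 1 they were 9 and 2 (11.9% and 15.2% of all genes), without low replicate 1 they were 7 and 4 (6.46% and 4.81%) and without high replicate 2 they were 6 and 2 (7.83% and 8.60%). The median log2 fold change, high minus low, was 0.10 over the 30 tested members and -0.01 over all genes tested.

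**Figure D1:**
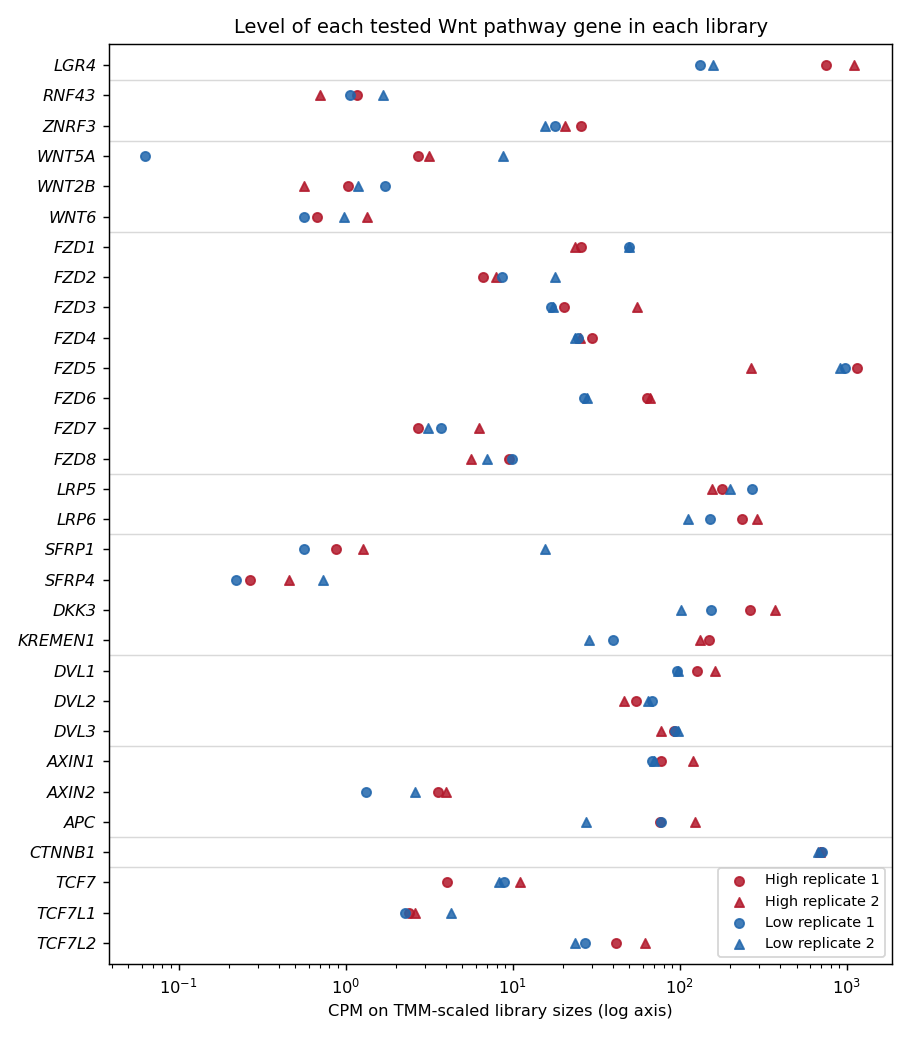
Levels of the 30 tested members in each library, in CPM on a log axis, grouped by role from top to bottom. Red marks the high and blue the low G0/G1 libraries, circles replicate 1 and triangles replicate 2. Both red marks of LGR4 lie at 751 CPM or more and both blue marks at 158 or less, while the 4 marks of CTNNB1 lie between 672 and 710.

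The receptor gene LGR4 showed the largest separation among the receptors. LGR4 (chromosome 2, 32871837 to 32979150 in Sscrofa11.1) had 751 and 1107 CPM in high and 132 and 158 CPM in low libraries. Both high libraries were above both low ones, with the lowest high value well clear of the highest low value. The means were 929 ± 251 CPM (SD, n = 2) in high and 145 ± 18.9 CPM in low, a fitted difference of 6.41-fold. On the log2 scale this was 2.68 ± 0.30 (SE, edgeR adjusted p = 0.125), rank 24 by p among the 14352 genes tested. DESeq2, the other count test, gave LGR4 an adjusted p of 2.2e-12. The 4 libraries took the reverse order in LGR4 to that in the summed S phase and mitosis genes. That order was not particular to LGR4, since FZD6, FZD3, DVL1, AXIN1 and AXIN2 had it too. ZNRF3, FZD4, LRP6, DKK3, KREMEN1 and TCF7L2, also above in both high libraries, did not. As the groups were formed by G0/G1 share, only the order within a group was free. The part of cell cycle phase in these levels was not tested.

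LGR4 was the single R-spondin receptor with appreciable counts. LGR5, a receptor known as a stem cell marker of many epithelia, had 4 counts in low replicate 1 and 0 in the other libraries. LGR6 had 6 counts in low replicate 2 and 0 elsewhere. Among the ligands of these receptors, RSPO1 had 0 counts in each of the 4 libraries. A count of 0 allows up to 3 counts, or 0.0918 to 0.109 CPM depending on the library, counting error only. RSPO2 had 2 and 1 counts in the high libraries and 0 in both low ones, and RSPO3 had 1 count in high replicate 2 and 2 in low replicate 2. These depths do not show a difference between groups for any R-spondin, LGR5 or LGR6.

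ZNRF3, a ligase on which R-spondins act, stood at 25.5 and 20.5 CPM in high and at 17.8 and 15.6 CPM in low. Its groups did not overlap, but the log2 fold change of 0.46 ± 0.26 (SE), like that of every member, missed the threshold (edgeR adjusted p = 0.355). RNF43 had 20 to 48 counts per library, at 1.17 and 0.702 CPM in high and 1.07 and 1.67 CPM in low, and its groups overlapped.

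Wnt ligands were scarce in both groups. Of the 4 ligand genes among the members, WNT4 was not tested, with 2 and 0 counts in high and 10 and 0 in low. WNT6 stood at 0.671 and 1.33 CPM in high and 0.565 and 0.971 CPM in low, with overlap. WNT2B stood at 1.04 and 0.562 CPM in high against 1.73 and 1.18 in low, a log2 fold change of -0.86 ± 0.64 (SE, edgeR adjusted p = 0.482). Its annotated span shares 17203 bases with ST7L, which had 377 to 649 counts per library, and the sources used here do not give the strand setting of the counting, so the WNT2B value is uncertain.

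WNT5A, a ligand best known for signalling without β-catenin, was uneven within the low group. It stood at 2.72 and 3.16 CPM in high and at 0.0627 and 8.77 CPM in low, so the low libraries lay on either side of the high ones. Over a wider list that adds 15 Wnt ligand genes, 19 in all, 13 had too few counts to be tested, with at most 13 counts in a library. WNT9A, 1 of the 6 tested, stood at 3.19 and 7.23 CPM in high and at 1.60 and 1.56 CPM in low, with a log2 fold change of 1.72 ± 0.57 (SE, edgeR adjusted p = 0.205). It was named after its values were seen. The highest level of any tested Wnt ligand in a library was the 8.77 CPM of WNT5A.

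Frizzled receptors went in both directions. All 8 members were tested, of which 4 had a positive and 4 a negative log2 fold change. FZD6 (chromosome 4, 33811159 to 33844556), often linked to planar cell polarity, stood at 63.7 and 66.7 CPM in high and at 26.9 and 27.7 CPM in low. The replicates lay close together and the groups far apart, with means of 65.2 ± 2.10 CPM (SD, n = 2) and 27.3 ± 0.630 CPM. The log2 fold change was 1.26 ± 0.20 (SE, edgeR adjusted p = 0.132). FZD1 (chromosome 9, 71346994 to 71356488) was the member whose level was lower with similarly tight replicates, at 25.7 and 23.7 CPM in high and 49.7 and 49.4 CPM in low. Its log2 fold change was -1.003 ± 0.207 (SE, edgeR adjusted p = 0.156). The annotated span of MTERF1 covers the whole of FZD1, over 9495 bases, with 113 to 222 counts per library against 676 to 1585 for FZD1. Since the strand setting of the counting is not given, the FZD1 counts carry some uncertainty.

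FZD3 (chromosome 14, 12281127 to 12394768), which acts in axon guidance and planar polarity, was carried by 1 library. It stood at 20.3 and 55.3 CPM in high and at 17.0 and 17.3 CPM in low. High replicate 2 was far above the rest, and high replicate 1 only just above the low libraries. The log2 fold change was 1.14 ± 0.50 (SE, edgeR adjusted p = 0.271), and it was 0.24 without high replicate 2.

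FZD5, a receptor for canonical Wnt signals, was low in that same library. It stood at 1149 and 267 CPM in high and at 980.0 and 910.0 CPM in low, so high replicate 1 was the highest and high replicate 2 the lowest of all. Its log2 fold change was -0.42 ± 0.66 (SE, edgeR adjusted p = 0.750), and it was 0.28 without high replicate 2 and -1.83 without high replicate 1. FZD5 took 87.9% of the counts of the 8 frizzled genes in high replicate 1 (95% Wilson interval 87.5 to 88.2%), 87.5% in low replicate 1 (87.1 to 87.8%) and 86.1% in low replicate 2 (85.8 to 86.5%). In high replicate 2 it took 58.3% (57.5 to 59.2%). These shares are of counts and are not corrected for gene length, and the intervals cover counting error only, not the spread between libraries.

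FZD2 stood at 6.64 and 7.93 CPM in high and 8.66 and 18.0 CPM in low, without overlap. Its log2 fold change was -0.87 ± 0.45 (SE, edgeR adjusted p = 0.325). Without low replicate 2 it was -0.23. FZD4, the receptor for norrin as well as Wnt, ranged from 23.7 to 30.0 CPM over the 4 libraries. FZD7 ranged from 2.72 to 6.25 CPM and FZD8 from 5.62 to 9.85 CPM, both with overlap between the groups.

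The LRP co-receptors differed in direction. LRP6 (chromosome 5, 60149041 to 60318719) stood at 237 and 291 CPM in high and at 151 and 112 CPM in low. Both high libraries were above both low ones, with means of 264 ± 37.7 CPM (SD, n = 2) and 132 ± 27.4 CPM, and a log2 fold change of 1.003 ± 0.254 (SE, edgeR adjusted p = 0.171). LRP5, its close homologue, stood at 179 and 155 CPM in high and 270 and 200 CPM in low, also without overlap but in the opposite direction, by -0.49 ± 0.24 (SE, edgeR adjusted p = 0.313). ROR2, a co-receptor for WNT5A, was not tested, with 2 and 4 counts in high and 5 and 24 in low.

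**Figure D2:**
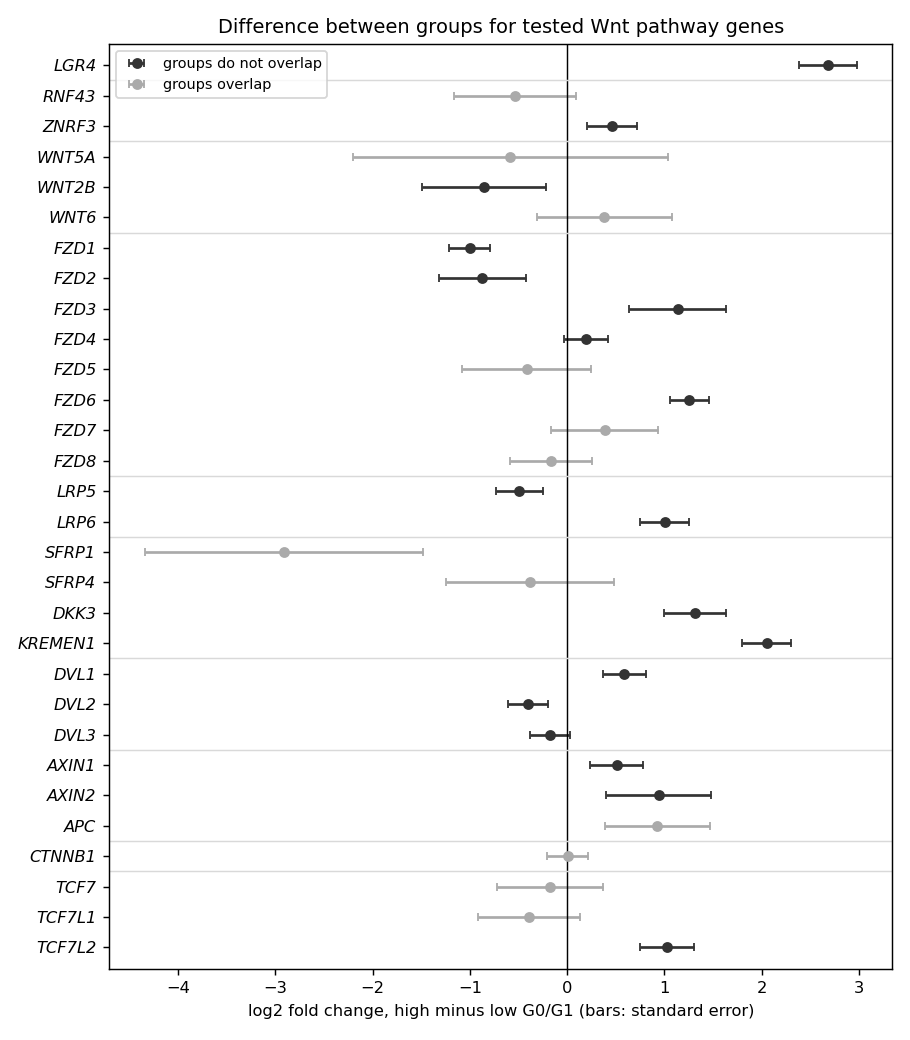
Log2 fold change of each tested member, high minus low G0/G1, with its standard error, in the order of the plot of levels. Dark points are genes whose groups did not overlap and grey points genes whose groups did. LGR4 at 2.68 and KREMEN1 at 2.05 lie farthest to the right, and SFRP1 at -2.91 lies farthest to the left with a wide error.

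Ratios of counts within 1 library do not depend on how libraries are scaled, and gene length cancels when libraries are compared. The pairs were chosen after their values were seen, so the ratios are descriptions. An exact two-sided permutation test of 2 against 2 libraries cannot go below p = 0.333, and none was run. The LRP6 to LRP5 ratio was 1.32 and 1.87 in the high libraries and 0.561 in each low library. LRP6 thus had more counts than LRP5 in the high libraries and fewer in the low ones. The FZD6 to FZD1 ratio was 2.48 and 2.81 in high against 0.540 and 0.562 in low. The LGR4 to ZNRF3 ratio was 29.4 and 53.9 against 7.38 and 10.1, and the DVL1 to DVL2 ratio was 2.33 and 3.53 against 1.41 and 1.49. In each of these 4 pairs both high libraries were above both low ones.

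**Figure D3:**
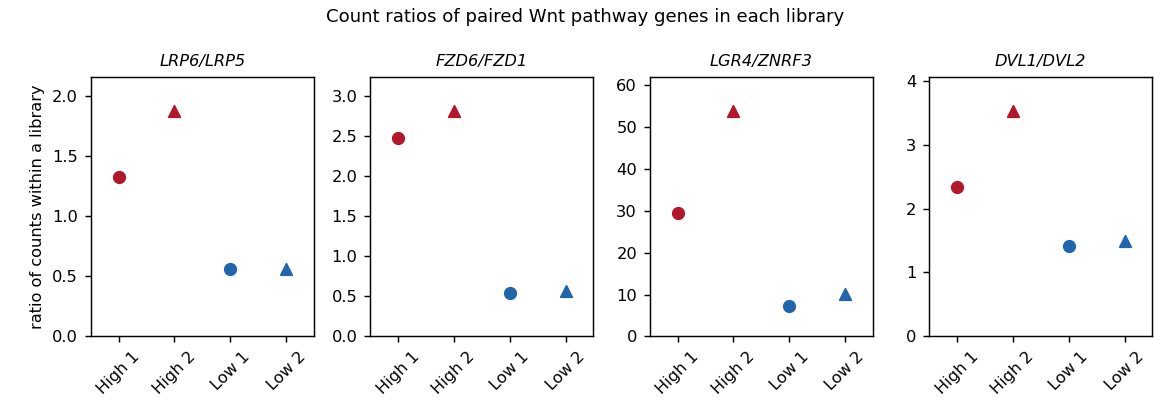
Ratio of the counts of paired members within each library, on linear axes from 0, with red for high and blue for low G0/G1 libraries. The LRP6 to LRP5 ratio lies above 1 in both high libraries and at 0.561 in both low ones.

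KREMEN1 (chromosome 14, 46254248 to 46323355), a membrane receptor that joins Dickkopf proteins to LRP6 and so removes the co-receptor from the surface, stood at 149.9 and 133 CPM in high and at 39.6 and 28.5 CPM in low. The groups were far apart relative to their spread, at 141 ± 12.2 CPM (SD, n = 2) and 34.0 ± 7.86 CPM, a fitted difference of 4.15-fold. The log2 fold change was 2.05 ± 0.25 (SE, edgeR adjusted p = 0.125), rank 40 by p among all genes tested. DESeq2 gave KREMEN1 an adjusted p of 2.0e-07.

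The Dickkopf genes differed in level. DKK1, the ligand of KREMEN1, was not tested, with 4 and 6 counts in high and 2 and 13 in low. DKK3 (chromosome 2, 47385244 to 47444664), a divergent member of that family, stood at 264 and 374 CPM in high and at 155 and 102 CPM in low. Both high libraries were above both low ones, and the log2 fold change was 1.32 ± 0.32 (SE, edgeR adjusted p = 0.169). NOTUM, an enzyme that strips the lipid from Wnt proteins, had 0 to 4 counts per library.

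Secreted frizzled-related proteins bind Wnt ligands outside the cell. SFRP1 stood at 0.872 and 1.26 CPM in high and at 0.565 and 15.6 CPM in low. Low replicate 2 was thus far above the other 3 libraries, which lay close together. The log2 fold change of -2.91 ± 1.43 (SE, edgeR adjusted p = 0.309) became 0.93 without low replicate 2. SFRP4 ranged from 0.220 to 0.728 CPM with its highest value in the same library, and its log2 fold change went from -0.38 to 0.73 without it. SFRP2 had 1 and 6 counts in high and 0 in both low libraries, and was not tested.

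Of the 41 members with a count, 13 had their highest level in low replicate 2 and 9 in low replicate 1, while 14 peaked in high replicate 2 and 5 in the other high library. The same split was not computed over all genes. SFRP1, WNT5A, ROR2, SFRP4 and DKK1 were among those highest in low replicate 2, the library with the highest sum of stromal markers. The others highest there were FZD2, TCF7L1, RNF43, DVL3, LEF1, LGR6, NOTUM and RSPO3. Beside the 9 stromal markers that peaked there, PDGFRA stood at 18.6 CPM in high replicate 2 against 6.17 in low replicate 2, and MYH11 at 5.37 against 3.68. Among the 9 were genes of fibroblast matrix, COL1A1 (390.2 CPM against 16.3 to 34.3 in the others), COL3A1 (478 CPM against 6.56 to 36.9) and DCN (78.0 CPM against 1.07 to 6.07). WNT5A was lowest in low replicate 1, at 0.0627 CPM, where the stromal sum was also lowest, at 56.2 CPM. The part of other cell types in these values was not tested, and in such bulk samples fewer cells of a type and less RNA per cell cannot be told apart. Without low replicate 2 the log2 fold changes of LGR4, KREMEN1, FZD6, LRP6, DKK3 and TCF7L2 were 2.84, 1.85, 1.29, 0.82, 1.06 and 0.94, and that of FZD1 was -0.99. The groups of these genes did not overlap, so their signs could not turn, and the values are descriptions only.

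**Figure D4:**
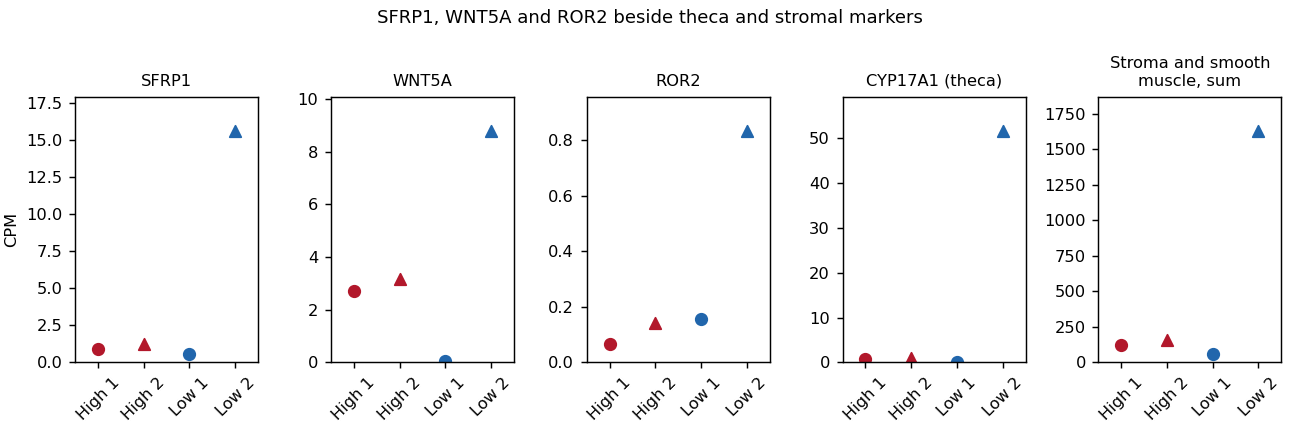
CPM of SFRP1, WNT5A and ROR2 in each library beside the theca marker CYP17A1 and the sum of 11 stromal and smooth muscle markers, each panel with its own linear axis from 0. In every panel low replicate 2 is the highest point, at 15.6 CPM for SFRP1 and 1626 CPM for the stromal sum.

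Inside the cell, dishevelled proteins carry the signal from frizzled. DVL1 (chromosome 6, 63617787 to 63628965) stood at 128 and 164 CPM in high and at 96.7 and 97.0 CPM in low. Both high libraries were above both low ones, with a log2 fold change of 0.59 ± 0.22 (SE, edgeR adjusted p = 0.227). DVL2 went the other way without overlap, at 54.7 and 46.4 CPM in high against 68.5 and 64.9 CPM in low, and DVL3 stood at 92.5 and 76.7 CPM against 93.1 and 98.2 CPM. The log2 fold changes of DVL2 and DVL3 were -0.40 ± 0.21 and -0.18 ± 0.21 (SE). DVL2 shares 69 bases of its span with ACADVL, which had 2106 to 5037 counts per library. NKD1, an inhibitor of dishevelled that Wnt signalling induces, had 1 to 9 counts per library and was not tested.

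Of the 3 genes of the destruction complex, 0 had an unadjusted p under 0.05. The scaffold AXIN1 stood at 77.7 and 120 CPM in high and at 68.7 and 69.9 CPM in low, a log2 fold change of 0.51 ± 0.27 (SE, edgeR adjusted p = 0.335). AXIN2, a scaffold that is itself a standard target of β-catenin, stood at 3.56 and 3.97 CPM in high and 1.32 and 2.60 CPM in low. Its groups did not overlap, with a log2 fold change of 0.94 ± 0.54 (SE, edgeR adjusted p = 0.366). CEP112, with 181 to 375 counts per library against 42 to 113 for AXIN2, overlaps it over 2925 bases, so its counts are uncertain. APC overlapped, at 76.0 and 123 CPM in high and 76.9 and 27.6 CPM in low.

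CTNNB1 (chromosome 13, 25163550 to 25208314) stood at 701 and 687 CPM in high and at 710 and 672 CPM in low, with full overlap. The level of its transcript does not measure the amount or place of the protein. The means were 694 ± 9.98 CPM (SD, n = 2) and 691 ± 27.01 CPM, and the edgeR adjusted p was 0.991. With its standard error of 0.21 on the log2 scale, CTNNB1 had the smallest log2 fold change of the 30 tested members, and its sign depended on the scaling (-0.03 with library totals only).

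Of the TCF and LEF factors, TCF7L2 (chromosome 14, 123343695 to 123547332) separated the groups. It stood at 41.5 and 62.1 CPM in high and at 27.2 and 23.5 CPM in low, a log2 fold change of 1.03 ± 0.28 (SE, edgeR adjusted p = 0.176). TCF7 stood at 4.03 and 11.13 CPM in high against 8.88 and 8.25 CPM in low, so that the high libraries lay on either side of the low ones. TCF7L1, the factor best known as a repressor, ranged from 2.26 to 4.27 CPM with overlap. LEF1, an induced target of the pathway in many tissues, had 2 to 8 counts per library and was not tested.

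The size of the differences moved when 1 library was left out. For the 9 members given in full the sign could not turn, since both libraries of a group lay on 1 side of both of the other. LGR4 ranged from 2.38 without high replicate 2 to 2.93 without high replicate 1, KREMEN1 from 1.85 to 2.37, FZD6 from 1.22 to 1.30 and FZD1 from -1.07 to -0.93. Without high replicate 1, edgeR called 6 members at an adjusted p under 0.05. LGR4, KREMEN1, FZD6, FZD3 and TCF7L2 were higher (adjusted p = 0.0176, 0.0354, 0.0415, 0.0292 and 0.0487) and FZD5 was lower (adjusted p = 0.0403). The lone high library is then assumed to vary like the low ones, and 6.33% of all genes tested were called. With any other library left out 0 members were called. With all 4 libraries DESeq2 called LGR4, KREMEN1, FZD6, DKK3, LRP6 and TCF7L2 higher and FZD1 lower, 20.0% and 3.33% of the 30, where it called 5.09% and 4.84% of the genes that edgeR tested.

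**Figure D5:**
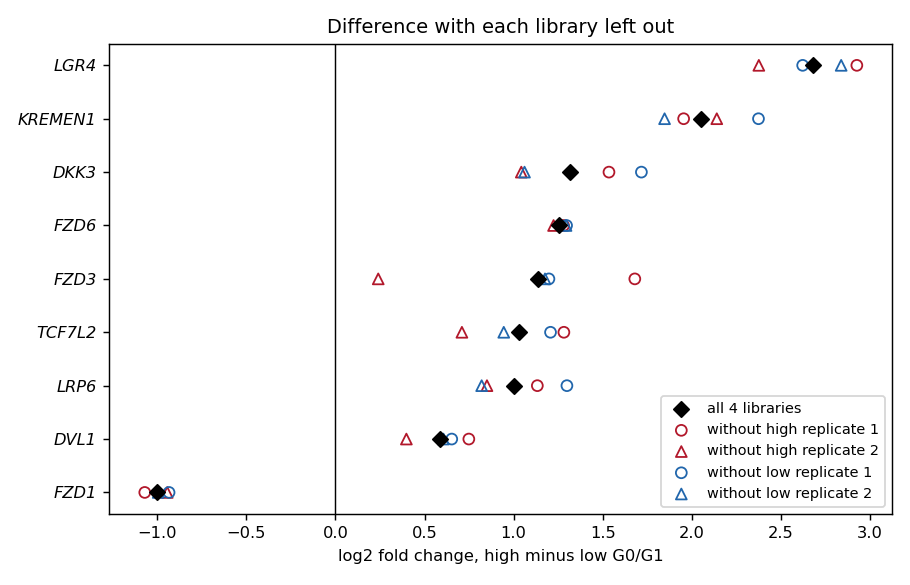
Log2 fold change, high minus low G0/G1, of the 9 members given in full, with all 4 libraries (black diamonds) and with each library left out (open symbols). LGR4 and KREMEN1 stay to the right of 1.8 in every fit, FZD1 stays between -1.07 and -0.93, and FZD3 moves from 1.14 to 0.24 without high replicate 2.

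Both high libraries were above both low ones in 12 of the 30 tested members, 40%, and below them in 6, 20.0%. The shares over all genes tested were 26.8% and 29.8%. The remaining 12 tested members overlapped. The 12 members that were not tested were RSPO1, RSPO2, RSPO3, LGR5, LGR6, WNT4, ROR2, SFRP2, DKK1, NOTUM, NKD1 and LEF1, with at most 24 counts in a library. The filter asks for counts in at least 2 libraries, so a gene high in 1 group can pass through that group alone, and counts over the tested members do not stand for all 42.

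The rest of the pathway was described by a list of 105 further genes, of which 102 were in the table and 77 were tested. Of these, 12 had higher and 8 had lower levels in the high group at an unadjusted p under 0.05, 15.6% and 10.4%, and 0 had an adjusted p under 0.05. Leaving out low replicate 2 gave 3 and 4, and leaving out low replicate 1 gave 6 and 10. The shares of all genes in those fits were 5.54% and 5.36%, and 6.46% and 4.81%, against 9.92% and 10.8% with all libraries. Their median log2 fold change was 0.20. Of 25 tested nuclear genes 13 had a positive and 12 a negative log2 fold change. At an unadjusted p under 0.05, 6 were higher and 4 lower, 24% and 16%, beside 9.92% and 10.8% of all genes tested. The corepressor TLE4, which binds TCF factors, stood at 145 and 85.7 CPM in high and at 49.1 and 30.9 CPM in low. JUP, the gene of plakoglobin, a close relative of β-catenin, stood at 234 and 447 CPM against 117 and 137 CPM. Both genes were higher in each high library than in either low one, by 1.53 ± 0.37 and 1.42 ± 0.36 (SE) on the log2 scale.

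CREBBP, an acetyltransferase that β-catenin recruits, differed by 0.79 ± 0.20 (SE) and the corepressor CTBP2 by 1.05 ± 0.34. On the lower side of the nuclear genes were CTNND2, a catenin of the p120 family, at 33.8 and 25.4 CPM in high against 61.3 and 71.4 CPM in low. RUVBL1, an ATPase of chromatin complexes, was lower by -1.29 ± 0.30 (SE) and CBY1, a β-catenin antagonist, by -0.78 ± 0.21. The edgeR adjusted p of these nuclear genes ran from 0.157 to 0.199.

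Outside the nucleus, CXXC5, a protein that binds dishevelled, stood at 38.7 and 42.3 CPM in high and at 20.6 and 21.6 CPM in low. CELSR2, a cadherin of planar cell polarity, stood at 32.3 and 21.9 CPM in high and 69.9 and 65.4 CPM in low, a log2 fold change of -1.32 ± 0.27 (SE, edgeR adjusted p = 0.155). PTK7, a pseudokinase receptor of the same process, stood at 13.7 CPM in both high libraries and at 23.4 and 34.7 CPM in low. Of the 16 tested receptors and co-receptors in this list, 2 were higher and 4 lower at an unadjusted p under 0.05, 12.5% and 25%. Over all genes tested the shares were 9.92% and 10.8%.

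A list of 19 β-catenin targets outside the members had 14 tested genes. At an unadjusted p under 0.05, 1 was higher and 1 lower, 7.14% each, where 9.92% of all tested genes were higher and 10.8% lower. Both high libraries were above both low ones in 1 of the 14 and below them in 3, 7.14% and 21.4%. The shares over all genes tested were 26.8% and 29.8%. The median log2 fold change of these targets was -0.16. GJA1, the gap junction protein connexin 43, was higher by 1.68 ± 0.38 (SE, edgeR adjusted p = 0.167). EPHB2, an ephrin receptor, stood at 17.2 and 23.6 CPM in high and 50.2 and 46.6 CPM in low, without overlap. SP5, a transcription factor that Wnt signalling induces in many tissues, had 0 or 1 count per library, and was named after its values were seen.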

How the data were processed

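The values are raw read counts per gene symbol, which the authors deposited as whole numbers with 1 column for each of the 4 libraries. Alignment used HISAT2 and Sscrofa11.1, per the submitters' processing notes, and RNA had an integrity number above 8, per the labels' protocols. The sources used here do not name the read counter, annotation or strand setting. Coordinates come from RefSeq (Sscrofa11.1), which matched all 42 members.

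High was compared with low by edgeR 4.0.16 in R 4.3.3, with filterByExpr (minimum count 10, total 15), TMM scaling, glmQLFit and glmQLFTest, no covariate, and adjustment over 14352 genes. Standard errors divide the size of the log2 fold change by the root of F. Alternatives were DESeq2 1.42.0, limma 3.58.1 (voom), 3 scalings, no filter and each library left out. The tests were checked on simulated counts.

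Members and lists were chosen with earlier results of these data known. Full values are given for tested members whose average log2 CPM is at least 1 at an unadjusted p under 0.05, or whose groups lie apart by a log2 fold change of 1 or more. From the further pathway genes and the β-catenin targets, up to 5 genes per direction with the smallest p are named. These have an unadjusted p under 0.05 and an average log2 CPM of at least 1.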

Additional observations from a re-analysis of the deposited data

How the results depend on the processing

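Of 300 comparisons of the 30 tested members' log2 fold changes across 10 alternatives, 272 kept direction and side of the threshold, 13 kept direction and passed it, and 15 turned direction. With 1 library left out, WNT5A ranged from -1.51 to 5.47, SFRP1 from -3.79 to 0.93, SFRP4 from -0.93 to 0.73 and TCF7L1 from -0.71 to 0.15, each positive only without low replicate 2. WNT6 ranged from -0.19 to 0.84, FZD5 from -1.83 to 0.28, FZD7 from -0.33 to 0.86, FZD8 from -0.60 to 0.17, TCF7 from -1.09 to 0.37 and CTNNB1 from -0.019 to 0.11. WNT5A was 1.92 with limma-voom, and CTNNB1 was -0.030 with library totals only and -0.0035 with no filter. Called genes over the table were 0 higher and 0 lower with edgeR on all libraries (2977 at an unadjusted p under 0.05), 0 and 0 with limma-voom, 739 and 698 with DESeq2, and 2 and 3 with no filter. With 1 library left out they ranged from 0 to 363 higher and 0 to 591 lower. Members called were 6 higher and 1 lower with DESeq2, and ranged from 0 to 5 and 0 to 1 with 1 library left out. Members lower at an unadjusted p under 0.05 were 2 with DESeq2, where 8.11% of all genes in that fit were lower at such a p. With 1 library left out the further pathway genes ranged from 3 to 10 higher and 4 to 13 lower, and the members' median from 0.094 to 0.39. Groups separate more easily when 1 holds a single library. Tested members with the high group below the low ranged from 8 to 11 and above it from 13 to 17, where 37.2 to 42.8% and 37.9 to 39.8% of all genes did so. The causes were not tested. No paired analysis was possible because the labels give no replicate numbers that groups share. The titles of high replicate 2 and low replicate 2 share a letter whose meaning is not given. Levels per gene length, planned beforehand, were not run because no transcript lengths were at hand.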
